A study of Homo sapiens with 6 samples.

Results

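Expression of 9 genes of MHC class I antigen presentation was compared between WT and ARID1A-KO AID-DIvA cells by RNA-seq. The genes were taken by name: the heavy chain genes HLA-B, HLA-C, HLA-E and HLA-F, the light chain gene B2M, the peptide transporter genes TAP1 and TAP2, the peptide loading gene TAPBP and the regulator gene NLRC5. They matched 10 of the 57820 rows in the deposited tables, since TAP2 has a second row (ENSG00000250264.1) that is at 0 in every sample. The other 9 rows, 1 for each gene, all passed the filter on low counts. AID-DIvA cells derive from the U2OS osteosarcoma line and carry a vector for the restriction enzyme AsiSI, which cuts the genome once 4-hydroxytamoxifen brings it into the nucleus. The samples were untreated, so both genotypes carry the vector and neither had induced breaks. The WT group holds 3 samples of the parental cells and the ARID1A-KO group holds 3 samples of cells in which Cas9 with 2 guide RNAs had disrupted ARID1A, a subunit of the SWI/SNF chromatin remodeling complex. Knockout clones were isolated, and how many of them the 3 ARID1A-KO samples represent is not given in the sources used here. The difference between genotypes therefore cannot be told apart from a difference between cell clones. The study describes its replicates as independent experiments, whereas the labels do not say whether the samples came from separate cultures, and p-values measure the spread between these samples only. Within each genotype the samples are numbered 3, 4 and 5.

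MHC class I molecules display peptides from inside the cell to cytotoxic T cells and natural killer cells on nearly all nucleated cells. The proteasome cuts proteins into peptides, the TAP1 and TAP2 heterodimer pumps the peptides into the endoplasmic reticulum, and tapasin, the product of TAPBP, holds an empty class I molecule next to the transporter. Each class I molecule is a heavy chain bound to beta-2 microglobulin, the product of B2M, and it leaves for the surface once a peptide has been bound. NLRC5 drives transcription of most of these genes from a shared promoter module bound by the RFX complex, CREB family factors and NF-Y, and interferons raise them through STAT and IRF factors.

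In GRCh37, the build of the tables, all but 2 of the genes lie in the MHC on the short arm of chromosome 6. There HLA-F (ENSG00000204642.9) spans chr6:29690552-29706305, HLA-E (ENSG00000204592.5) spans chr6:30457244-30461982, HLA-C (ENSG00000204525.10) spans chr6:31236526-31239907 and HLA-B (ENSG00000234745.5) spans chr6:31321649-31324965. TAP2 (ENSG00000204267.9) spans chr6:32789610-32806557, TAP1 (ENSG00000168394.9) spans chr6:32812986-32821755 and TAPBP (ENSG00000231925.7) spans chr6:33267471-33282164. HLA-F and HLA-E are on the plus strand and the other 5 on the minus strand. B2M (ENSG00000166710.13) lies at chr15:45003675-45011075 and NLRC5 (ENSG00000140853.11) at chr16:57023397-57117443, both on the plus strand. In the counts by strand used here, HLA-F-AS1 on the strand opposite to HLA-F had 100 to 196 counts per sample, and PSMB9 on the strand opposite to TAP1 had 116 to 883. The class I heavy chain genes resemble each other and vary between people. How reads that match more than 1 of them were counted is not given in the sources used here, so their levels are uncertain to that extent.

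The promoters of HLA-B, HLA-C, HLA-F, B2M and the TAP genes are shown as a description. Whether their letters relate to the changes below was not tested. RefSeq promoter windows on GRCh38.p14 were at hand for 7 of the 9 genes and run from 250 bases before the first base of the gene to 50 bases after it. HLA-E and NLRC5 had no entry. The 200 bases up to each start are printed 5′ to 3′ on the strand of the gene, with capitals marking matches on either strand to 4 patterns: the core GAAANNGAAA of the interferon-stimulated response element (ISRE), the CCAAT box, the core TGACG of the cyclic AMP response element that forms the X2 box of class I promoters, and the NF-κB pattern GGGNNTTCC. These are the bases of the reference genome and were not read from the cells. The segments are chr6:31357180-31357379 for HLA-B, chr6:31272093-31272292 for HLA-C, chr6:32853705-32853904 for TAP1 and chr6:32838740-32838939 for TAP2 on the minus strand, and chr6:29723234-29723433 for HLA-F and chr15:44711317-44711516 for B2M on the plus strand.
HLA-B: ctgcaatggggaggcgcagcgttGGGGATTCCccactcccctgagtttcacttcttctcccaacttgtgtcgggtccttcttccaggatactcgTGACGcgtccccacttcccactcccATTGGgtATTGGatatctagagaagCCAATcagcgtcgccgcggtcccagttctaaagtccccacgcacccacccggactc
HLA-C: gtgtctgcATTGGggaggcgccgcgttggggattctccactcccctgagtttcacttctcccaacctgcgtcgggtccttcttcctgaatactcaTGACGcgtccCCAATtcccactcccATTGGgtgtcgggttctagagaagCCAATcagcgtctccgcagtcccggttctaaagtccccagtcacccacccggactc
HLA-F: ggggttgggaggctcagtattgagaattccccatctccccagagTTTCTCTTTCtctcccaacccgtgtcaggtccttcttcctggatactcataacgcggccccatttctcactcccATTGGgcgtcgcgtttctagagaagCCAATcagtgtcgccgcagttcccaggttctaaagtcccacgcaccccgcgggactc
B2M: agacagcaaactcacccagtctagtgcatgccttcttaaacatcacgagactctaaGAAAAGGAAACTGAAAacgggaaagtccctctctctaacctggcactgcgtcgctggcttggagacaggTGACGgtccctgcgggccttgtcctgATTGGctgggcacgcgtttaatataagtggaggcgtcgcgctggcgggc
TAP1: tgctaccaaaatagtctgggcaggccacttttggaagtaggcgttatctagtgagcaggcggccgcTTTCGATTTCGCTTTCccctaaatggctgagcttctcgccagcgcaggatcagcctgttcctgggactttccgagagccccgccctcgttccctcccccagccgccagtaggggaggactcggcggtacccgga
TAP2: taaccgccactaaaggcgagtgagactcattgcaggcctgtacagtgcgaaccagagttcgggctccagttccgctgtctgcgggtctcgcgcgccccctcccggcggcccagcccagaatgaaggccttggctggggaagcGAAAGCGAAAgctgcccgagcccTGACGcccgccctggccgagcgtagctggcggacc

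The 3 heavy chain promoters were close relatives of each other. HLA-B and HLA-C were identical at 87.7% of aligned positions, HLA-B and HLA-F at 80.8%, and HLA-C and HLA-F at 80.2%, whereas B2M shared 46.4% to 48.3% with them. With position 0 as the first base of the gene, HLA-B and HLA-C held TGACG at -106 and -105 and a CCAAT box at -56, and HLA-F held a CCAAT box at -57 and no TGACG. The ISRE core was found at -156 in HLA-F, at -58 in TAP2, and as overlapping pairs at -134 and -128 in TAP1, at -144 and -138 in B2M and at -20 and -14 in TAPBP. In total, 5 of the 7 genes held the ISRE core, against 3.57% of all 35116 promoter windows. HLA-B and HLA-C held no exact match, and looser forms of the pattern were not searched. The CCAAT box was in 5 of the 7 genes against 34.6% of all windows, TGACG in 4 against 24.6%, and the NF-κB pattern in HLA-B, TAPBP and B2M against 6.58%. Longer or looser forms of the NF-κB pattern were not searched either. A promoter without a match, such as that of TAP1, may therefore still hold an NF-κB site, and B2M may hold others. In B2M, the NF-κB match runs across the start and is not in the printed segment, and in TAP1 a CCAAT box at -249 lies upstream of it. A second TAP1 window in the reference held none of the patterns. TAP1 and PSMB9, an inducible proteasome subunit gene, are read in opposite directions from starts 488 bases apart. A match to a pattern describes the letters only.

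The libraries held 59864474 to 72413018 counts in WT and 54512105 to 84088708 in ARID1A-KO cells. The lowest count of any of the 9 genes in a sample was 431, for NLRC5. As the check of the labels, ARID1A had 173 ± 6.7 CPM (counts scaled to the size of each library) in WT and 25.9 ± 1.4 CPM in ARID1A-KO samples (mean ± SD, n = 3 each), a log2 fold change of -2.74. Of 19599 genes with enough counts to be tested, 36.2% were differentially expressed in edgeR's quasi-likelihood test (Benjamini-Hochberg adjusted p under 0.05), made up of 17.8% that were higher and 18.4% that were lower after knockout. A gene that passes is called below. The median log2 fold change over all genes tested was 0.0066. Of the mesenchymal and osteoblast lineage markers, VIM was at 2155 to 4479 CPM and SPARC at 379.8 to 795 CPM, whereas COL1A2 was at 0.09 to 0.27 CPM. Of 10 markers of immune, endothelial and epithelial cells, 9 had a row and summed to 6.73 to 9.20 CPM in WT and 11.0 to 12.3 CPM in ARID1A-KO cells. Of these, NKG7 was at 0 in every sample, CD3E was at 0 in all but 1 sample and LYZ was at 0.05 CPM or below, whereas ITGAM was called higher in ARID1A-KO cells (log2 fold change 2.95) and PTPRC lower (-2.10), as 2 of the 4 markers that were tested. EPCAM was called higher (0.44), a call lost without WT sample 4 or 5 or ARID1A-KO sample 3 or 4 (adjusted p = 0.0599 to 0.085), and CD14 was not called. Their part in the results on class I genes was not tested.

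The sample numbered 5 stood apart for these genes in both genotypes. Each of the 9 genes was highest in sample 5 of WT and again in sample 5 of ARID1A-KO cells, a pattern found in 15.5% of all genes tested. The plot of sample 5 against samples 3 and 4 gives the size of that step for each gene. TAP2 had log2 ratios of 0.14 in WT and 0.12 in ARID1A-KO cells, HLA-E had 0.29 and 0.12, and the step went from 0.48 in WT to 0.92 in ARID1A-KO cells for NLRC5. TAPBP stepped up by log2 ratios of 0.60 and 0.66. The summed CPM of 22 interferon-stimulated genes moved in the same samples. It was 65.0, 50.4 and 129 in WT samples 3, 4 and 5 and 64.8, 66.7 and 203 in the ARID1A-KO samples, so sample 5 was above the other samples by log2 ratios of 1.16 and 1.63. Its part in the levels of the class I genes was not tested. Each change of a class I gene is therefore also given without both samples numbered 5, an alternative chosen after seeing the data.

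**Figure D1:**
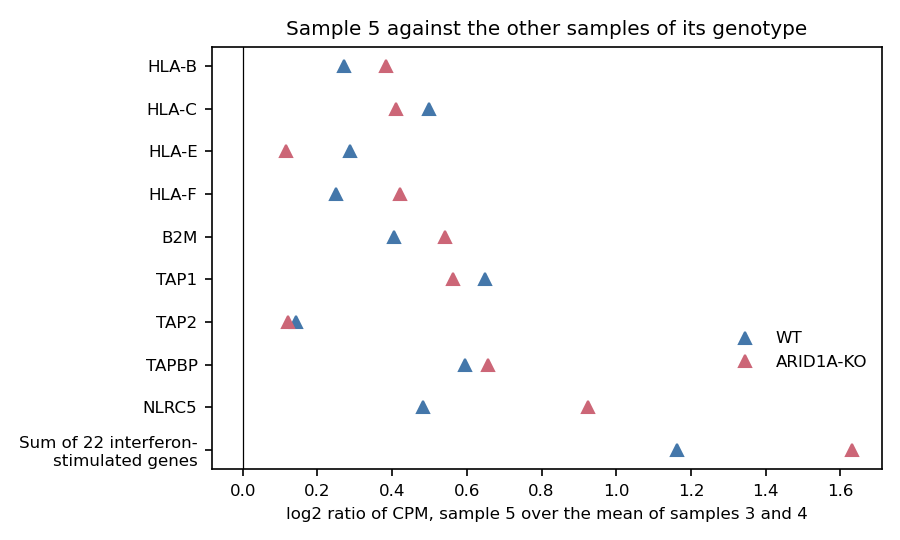
The log2 ratio of CPM in sample 5 over the mean of samples 3 and 4 of the same genotype is plotted for each class I gene and for the sum of 22 interferon-stimulated genes, with 1 triangle for WT and 1 for ARID1A-KO. All 20 triangles lie to the right of 0, from 0.12 to 0.92 for the class I genes and at 1.16 and 1.63 for the sum.

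Between genes, levels were compared as TPM, which divide counts by gene length and scale them to a fixed sum. B2M, HLA-B and HLA-C were among the most abundant transcripts of the cells, and NLRC5 was the least abundant of the 9 genes. B2M had a mean of 320 TPM over the 6 samples (251 to 397), above 98.3% of all genes tested. HLA-B had 279 TPM (201 to 385), HLA-C 257 TPM (179 to 368) and HLA-E 136 TPM (98.8 to 174). The loading machinery was lower, with TAPBP at 50.5 TPM (39.8 to 69.8), TAP1 at 33.7 TPM (19.2 to 57.7) and TAP2 at 14.9 TPM (12.5 to 17.3). HLA-F, at 8.42 TPM (4.94 to 13.4), was near the middle of all genes tested, with 49.6% of them below it. NLRC5 had 2.62 TPM (1.87 to 3.93), above 30.9% of them. In WT samples, the ranges of neighbours in this order overlapped for HLA-B and HLA-C only. In ARID1A-KO samples, HLA-B came first, and the ranges of HLA-B, B2M and HLA-C overlapped in order, as did those of TAPBP with TAP1 and of TAP2 with HLA-F.

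**Figure D2:**
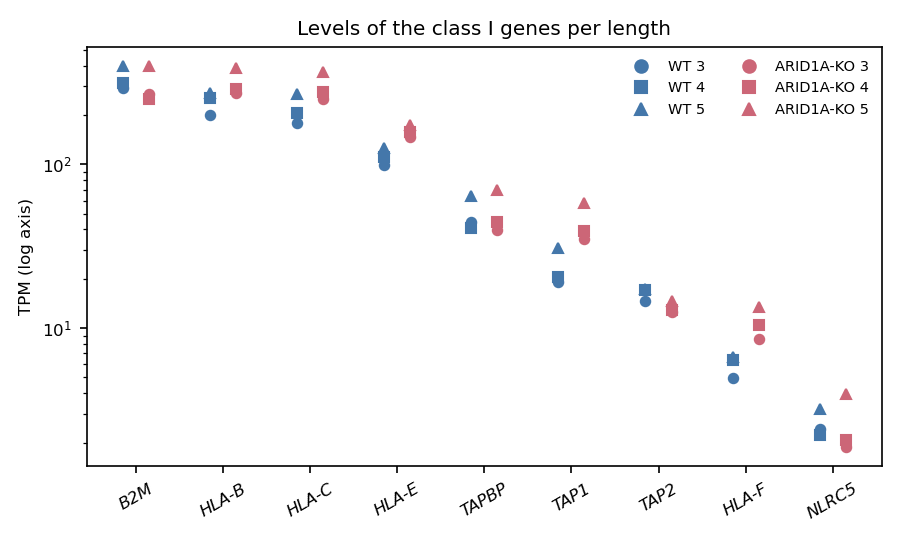
TPM of each class I gene in each sample is plotted on a log axis, in order of the mean over 6 samples, with WT on the left and ARID1A-KO on the right of each pair and 1 symbol for each sample. The genes span from 397 TPM for B2M to 1.87 TPM for NLRC5, and sample 5 (triangles) is at the top of each group.

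Of the 4 heavy chain genes, HLA-E and HLA-F rose in ARID1A-KO cells, and HLA-B and HLA-C did not pass the test. HLA-F, which encodes a nonclassical heavy chain that can reach the surface without peptide, had 6.95, 9.20 and 9.61 CPM in WT and 12.8, 15.0 and 18.6 CPM in ARID1A-KO samples 3, 4 and 5. Every ARID1A-KO sample was above every WT sample, and HLA-F rose 1.80-fold, or by 0.85 in log2 fold change (SE 0.16, n = 3 each, adjusted p = 0.00311, edgeR's quasi-likelihood test). Without both samples numbered 5 its log2 fold change was 0.78 (adjusted p = 0.00753). In bulk samples, more cells with a transcript and more RNA per cell cannot be told apart. HLA-E, the nonclassical chain that presents leader peptides of other class I chains to natural killer cell receptors, had 88.4, 101 and 115 CPM in WT and 139, 143 and 153 CPM in ARID1A-KO samples. The groups did not overlap, and HLA-E rose by 0.51 (SE 0.09, adjusted p = 0.00255), or 1.43-fold, with 0.57 (adjusted p = 0.00171) without both samples numbered 5.

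HLA-B and HLA-C encode classical chains, which present peptides to cytotoxic T cells. HLA-B had 182, 235 and 252 CPM in WT and 259, 267 and 343 CPM in ARID1A-KO samples. These groups did not overlap in CPM, although in TPM the lowest ARID1A-KO sample, at 271 TPM, was just below WT sample 5, at 272 TPM. Its log2 fold change of 0.38 (SE 0.14) did not pass the test (adjusted p = 0.0569, edgeR's quasi-likelihood test). HLA-C had 135, 157 and 206 CPM in WT and 198, 212 and 272 CPM in ARID1A-KO samples. Here WT sample 5 was above ARID1A-KO sample 3, and the log2 fold change of 0.46 (SE 0.16) did not pass either (adjusted p = 0.0509). The call of both genes depended on the tool and on its settings. DESeq2 called HLA-B (log2 fold change 0.37, adjusted p = 0.0203) and HLA-C (0.45, adjusted p = 0.0122) higher. So did edgeR with no filter on low counts and edgeR with the replicate number as a block. The calls also depended on single samples. Leaving out ARID1A-KO sample 3 gave edgeR adjusted p-values of 0.0494 for HLA-B and 0.0414 for HLA-C, leaving out WT sample 5 gave 0.0129 for HLA-C at a log2 fold change of 0.64, and the other samples left out gave values up to 0.186 and 0.179. Without both samples numbered 5, HLA-C was called (0.49, adjusted p = 0.00473) and HLA-B was not (0.33, adjusted p = 0.0578).

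B2M, the light chain gene that serves all of these heavy chains, did not pass the test. It had 277, 303 and 383 CPM in WT and 266, 242 and 370 CPM in ARID1A-KO samples. The groups overlapped, and the log2 fold change was -0.13 (SE 0.16, adjusted p = 0.571). It was -0.19 (adjusted p = 0.111) without both samples numbered 5 and ran from -0.34 to 0.01 with each sample left out in turn. In TPM, the ratio of B2M to the sum of the 4 heavy chain genes was 0.603, 0.545 and 0.589 in WT samples and 0.394, 0.343 and 0.423 in ARID1A-KO samples. The ratio was thus 0.579 ± 0.030 in WT and 0.387 ± 0.041 in ARID1A-KO cells (mean ± SD, n = 3 each), with no overlap between genotypes. The difference in this ratio was not tested, and among single genes 48.8% of all those tested did not overlap in TPM.

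The subunits of the peptide transporter were called in opposite directions, TAP1 higher and TAP2 lower, and the call of TAP2 depended on single samples. TAP1 had 27.3, 29.9 and 44.8 CPM in WT and 52.5, 56.8 and 80.8 CPM in ARID1A-KO samples. Every ARID1A-KO sample was above every WT sample. TAP1 rose 1.87-fold, or by 0.90 in log2 fold change (SE 0.20, adjusted p = 0.00762, edgeR's quasi-likelihood test), with 0.93 (adjusted p = 0.000228) without both samples numbered 5. TAP2, the partner that completes the transporter, had 28.0, 33.4 and 33.9 CPM in WT and 25.4, 25.3 and 27.6 CPM in ARID1A-KO samples. Each ARID1A-KO sample was below each WT sample in CPM, ARID1A-KO sample 5 only just below WT sample 3, and TAP2 fell 1.22-fold (log2 fold change -0.28, SE 0.09, adjusted p = 0.0318). In TPM, that pair of samples overlapped, at 14.63 TPM in ARID1A-KO and 14.60 TPM in WT. The call of TAP2 was lost without WT sample 4 (adjusted p = 0.0808), WT sample 5 (0.0993), ARID1A-KO sample 3 (0.103), ARID1A-KO sample 4 (0.114) or both samples numbered 5 (0.0685, at a log2 fold change of -0.28). The ratio of TAP1 to TAP2 in TPM was 1.31, 1.20 and 1.78 in WT and 2.78, 3.02 and 3.94 in ARID1A-KO samples, or 1.43 ± 0.31 against 3.25 ± 0.61 (mean ± SD, n = 3 each). The ISRE core printed above is in the promoters of both TAP genes, as an overlapping pair in TAP1 and as 1 match in TAP2. Its part in the levels of these genes was not tested.

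TAPBP, which encodes tapasin, had 67.4, 63.4 and 98.8 CPM in WT and 63.7, 68.5 and 104 CPM in ARID1A-KO samples. Both groups covered the same range, and its log2 fold change of 0.05 (SE 0.21) did not pass the test (adjusted p = 0.888), nor did 0.016 without both samples numbered 5. NLRC5, the regulator of the class I promoters, had 9.05, 8.40 and 12.2 CPM in WT and 7.33, 7.84 and 14.4 CPM in ARID1A-KO samples. Samples 3 and 4 of ARID1A-KO cells were below all WT samples and sample 5 was above them, so the fitted log2 fold change was 0.0047 (SE 0.25, adjusted p = 0.991). Without both samples numbered 5, the log2 fold change of NLRC5 was -0.20 (adjusted p = 0.224) and did not pass either.

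**Figure D3:**
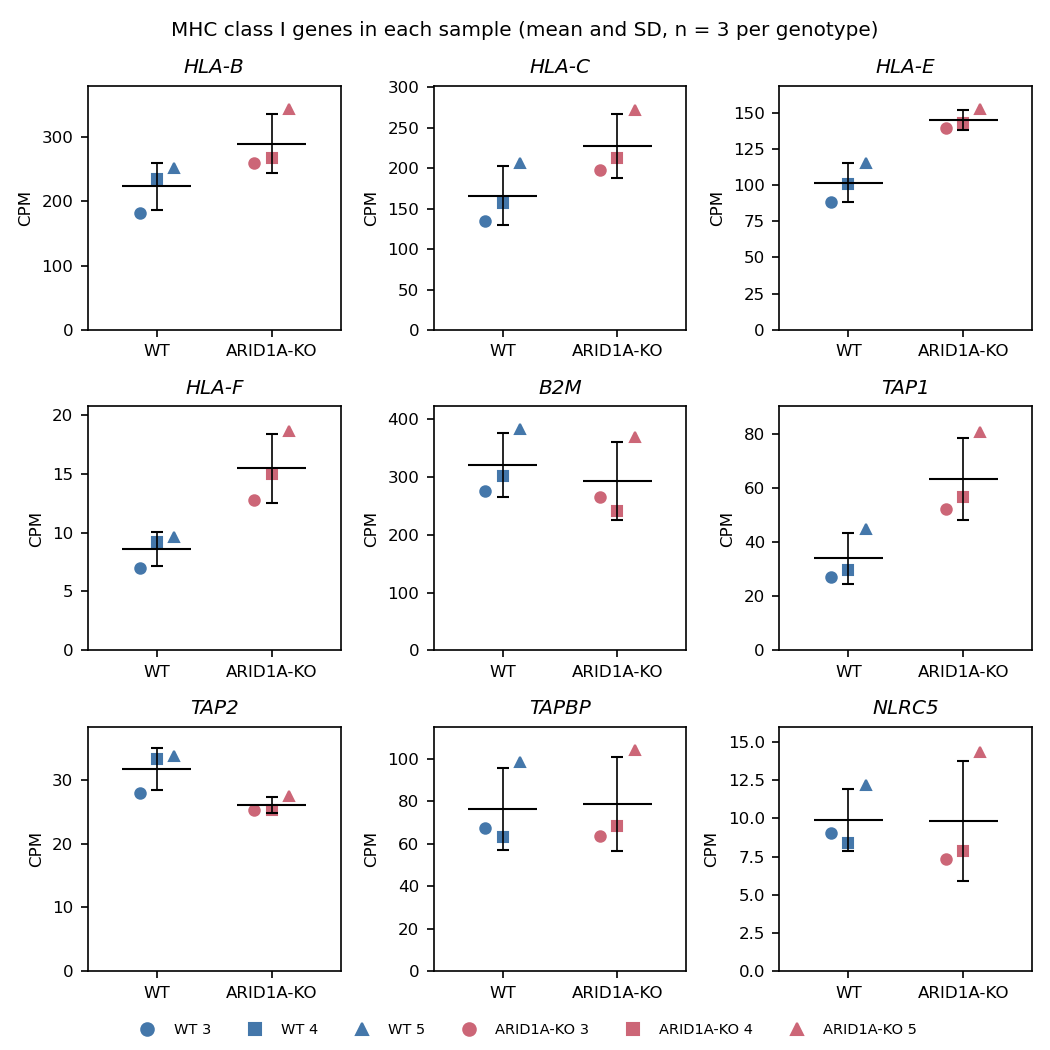
CPM of each class I gene is plotted by genotype, with 1 symbol for each sample, a horizontal line at the mean and bars for the SD (n = 3 per genotype). HLA-B, HLA-E, HLA-F and TAP1 have all ARID1A-KO samples above all WT samples, TAP2 has them below, and HLA-C, B2M, TAPBP and NLRC5 overlap.

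Of the 9 genes, 3 were called higher (HLA-E, HLA-F and TAP1) and 1 lower (TAP2), beside 17.8% and 18.4% of all genes tested, so that the share called, 4 of 9, was near the 36.2% of the whole table. Their median log2 fold change was 0.38. In CPM, 4 of the 9 genes did not overlap between genotypes on the higher side, where 24.8% of all genes tested did not, and 1 did not overlap on the lower side, where the share of all genes was 24.8%. HLA-E, HLA-F and TAP1 were called with any 1 sample left out, with adjusted p-values up to 0.0098, 0.0124 and 0.0361.

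The change of each class I gene was also set beside that of the genes around it. Neighbours were the other tested genes within 5 Mb, leaving out the class I genes themselves and all genes of the pathway and marker lists used here. For the genes on chromosome 6 there were 203 to 238 of them, with a median log2 fold change between 0.021 and 0.038. HLA-F, HLA-E and TAP1 were thus above, and TAP2 below, the median of their surroundings. A median near 0 does not mean that single genes there were alike in both genotypes. The 130 neighbours of B2M had a median of -0.027. NLRC5 was the exception, at 0.0047 beside a median of 0.31 over its 67 neighbours. With the median of the neighbours as an offset, its log2 fold change was -0.30 and did not pass edgeR's quasi-likelihood test (adjusted p = 0.393).

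**Figure D4:**
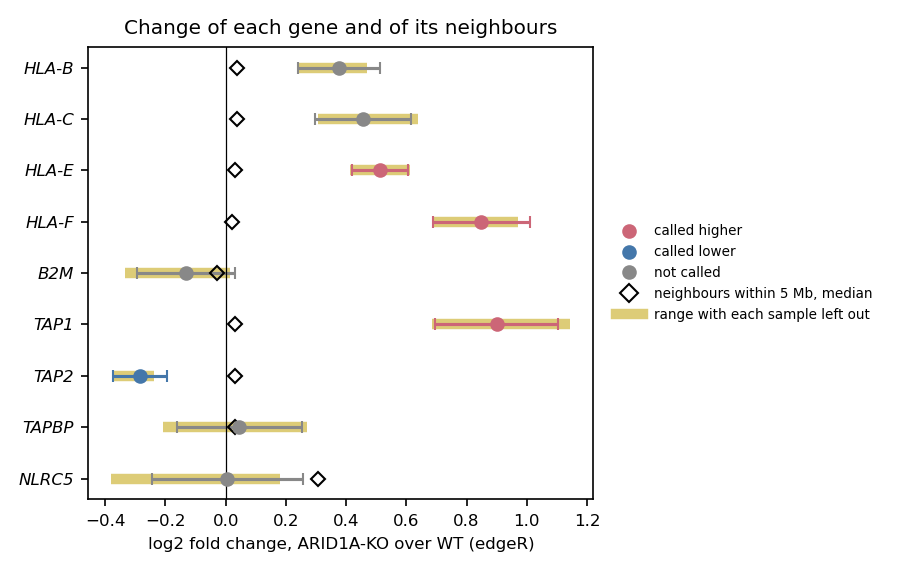
The log2 fold change of each class I gene (ARID1A-KO over WT, circle with its SE, coloured by call), the range of its values with each sample left out in turn (yellow band) and the median of its neighbours within 5 Mb (diamond) are plotted on 1 axis. The bands of HLA-B, HLA-C, HLA-E, HLA-F and TAP1 lie to the right of 0, that of TAP2 to the left, and the neighbours of all but NLRC5 lie between -0.027 and 0.038.

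The other genes of the pathway were taken from 8 lists of 85 genes, of which 74 were tested. In ARID1A-KO cells, 10 of these were called higher and 8 lower, 18 of 74 in all beside 36.2% of all genes tested, with a median log2 fold change of 0.06. Peptide supply, meaning the immunoproteasome and the peptidases, had 10 genes tested with a median of 0.12. TPP2, a cytosolic peptidase, was the 1 gene called in it, although 5 were called with no filter on low counts, 3 higher and 2 lower, and 2 without both samples numbered 5, 1 in each direction. TPP2 fell by a log2 fold change of -0.83 (adjusted p = 2.14e-05), from 61.8, 63.6 and 63.0 CPM in WT to 37.4, 34.8 and 33.4 CPM, and its 23 neighbours had a median of -0.99. Among the 3 constitutive catalytic subunits, PSMB5 rose by 0.28 (adjusted p = 0.00442) with 127 neighbours at a median of 0.31, and PSMB6 and PSMB7 had 0.05 and -0.004, not passing the test.

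Of 6 genes for folding and loading, which act on the heavy chain before and beside tapasin, only BCAP31 was called. BCAP31, which carries class I molecules out of the endoplasmic reticulum, rose by 0.32 (adjusted p = 0.0168), a call lost without WT sample 3 (0.0746), ARID1A-KO sample 3 (0.0636) or ARID1A-KO sample 4 (0.0682). The transcription factors of class I promoters had a median of -0.08. Of these 11 genes, 3 were called lower and 0 higher, beside 18.4% and 17.8% of all genes tested. Without ARID1A-KO sample 5, 4 were called lower and 1 higher. RFXANK, a subunit of the RFX complex, fell from 22.3, 23.6 and 28.1 CPM in WT to 14.3, 15.2 and 16.5 CPM in ARID1A-KO samples, a log2 fold change of -0.68 (adjusted p = 0.000899) beside -0.37 for its 148 neighbours. CREB1, which binds the TGACG core, fell by -0.35 (adjusted p = 0.00206) beside -0.13 for its 47 neighbours. NFYB, a subunit of the NF-Y complex that binds CCAAT boxes, fell by -0.24 (adjusted p = 0.0259), a call lost without WT sample 4 (0.0549), ARID1A-KO sample 3 (0.0971), ARID1A-KO sample 4 (0.0982) or both samples numbered 5 (0.0548).

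Interferon receptors and signal transducers had 10 genes tested, with a median of -0.07. Of these, 1 was called higher and 2 lower, beside 17.8% and 18.4% of all genes tested. JAK2, a kinase of the interferon gamma receptor, fell by -0.82 (adjusted p = 0.000465), and its 39 neighbours had a median of -0.84. TYK2, a kinase of the type I interferon receptor, fell by -0.32 (adjusted p = 0.00554) beside -0.27 for its neighbours. IRF9, the DNA-binding subunit of the complex that binds the ISRE, had 1.06, 1.39 and 1.05 CPM in WT and 1.67, 1.44 and 2.76 CPM in ARID1A-KO samples. It was called higher at 0.75 (adjusted p = 0.0472), beside 0.30 for its 125 neighbours. That call rested on single samples, since it was lost without WT sample 3 (0.138), WT sample 5 (0.136), ARID1A-KO sample 3 (0.0548) or ARID1A-KO sample 5 (0.141), and the log2 fold change without both samples numbered 5 was 0.34 (0.265). Of 18 interferon-stimulated genes tested, GBP2 was the only one called, and 15 of the 18 (83.3%) were highest in sample 5 of both genotypes. GBP2, an interferon-inducible GTPase, had 1.09, 0.73 and 1.07 CPM in WT and 2.31, 2.20 and 7.33 CPM in ARID1A-KO samples, a log2 fold change of 2.05 (adjusted p = 0.00727). That value rested on ARID1A-KO sample 5, since it was 1.23 (adjusted p = 0.00211) without it and 1.31 (adjusted p = 0.00454) without both samples numbered 5. The list had a median of 0.34. The genes called in it were 2 without WT sample 5, both higher, 4 without ARID1A-KO sample 5, of which 3 were lower, 7 without both samples, of which 4 were higher and 3 lower, and 10 with no filter on low counts, of which 8 were higher.

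Of 9 tested genes for other class I-like chains and ligands, 5 were called higher and 2 lower, with a median of 0.60. Of all genes tested, 17.8% were called higher and 18.4% lower. HLA-G, a nonclassical heavy chain gene close in sequence to the others, had 0.49, 0.72 and 0.84 CPM in WT and 1.91, 1.84 and 1.59 CPM in ARID1A-KO samples, and rose 2.60-fold, or by 1.38 in log2 fold change (adjusted p = 0.00103, edgeR's quasi-likelihood test). FCGRT, the heavy chain of the neonatal Fc receptor, which also pairs with beta-2 microglobulin, rose by 1.12 (adjusted p = 0.00177). MICB, a stress-induced ligand of the NKG2D receptor, rose by 1.27 (adjusted p = 0.00431) at levels of 0.17 to 0.55 CPM, which were only 12 to 40 counts per sample. Unlike HLA-E and HLA-F, these genes were scarce in both genotypes. Of 12 class II genes, 7 were tested and HLA-DPA1 was called higher, by 1.0 (adjusted p = 0.000852), at 1.24 to 1.53 CPM in WT and 2.66 to 2.91 CPM in ARID1A-KO samples. Without ARID1A-KO sample 4, 2 class II genes were called, both higher. The median of the class II genes was -0.04, and CIITA, the class II counterpart of NLRC5, was at 0.06 CPM or below in every sample.

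**Figure D5:**
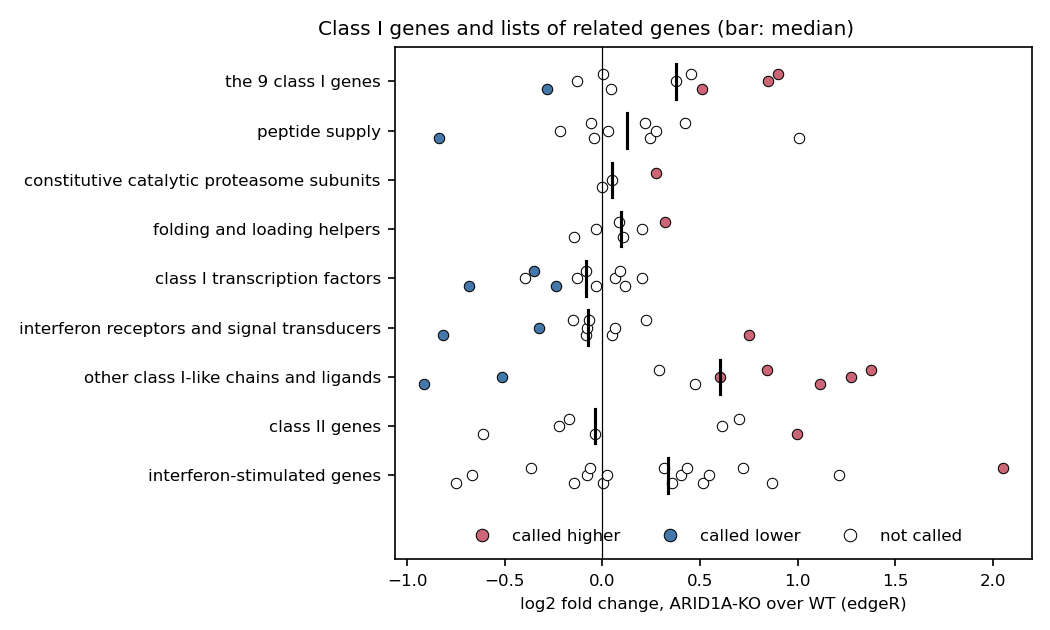
The log2 fold change (ARID1A-KO over WT) of each tested gene is plotted for the 9 class I genes and 8 lists of related genes, with filled circles for genes called higher or lower, open circles for the rest and a bar at the median. The medians run from -0.08 for the transcription factors to 0.60 for the other class I-like chains and ligands, and that of the 9 class I genes is 0.38.

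The genes whose levels followed B2M and NLRC5 most closely over the 6 samples were taken from 13217 genes by the Pearson correlation of log2 CPM, as a description. For B2M these were KLHDC2 (r = 0.989), TRIM69 (r = 0.970) and DHX32 (r = 0.968). For NLRC5 they were CARD6 (r = 0.991), PELI3 (r = 0.987) and LACC1 (r = 0.986). The 6 points share their genotype groups, their libraries and the step in sample 5.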

How the data were processed

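Paired-end RNA-seq covered 3 WT and 3 ARID1A-KO samples, all untreated. The labels call it polyA RNA, whereas the protocol names a stranded kit for total RNA. STAR, run by the authors within Roddy, aligned the reads to GRCh37 (hg19), and featureCounts gave the whole-number gene counts that were deposited, with no normalization. Tool versions are not given in the sources used here. Per the file headers, the authors also deposited TPM and FPKM values, with a second TPM column that has another scaling, treated as a score and not used. Reverse-stranded counts were used, since forward counts came to 5.83% to 6.15% of them.

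After filterByExpr and TMM normalization, the counts were tested with edgeR's quasi-likelihood test (edgeR 4.0.16, R 4.3.3) with Benjamini-Hochberg adjustment over all 19599 genes tested, all 6 samples and no covariate, and a gene is called at an adjusted p under 0.05. Each SE is the absolute log2 fold change divided by the square root of the F statistic of that test. The fit was tested on simulated data. Samples were grouped by the labels. DESeq2 1.42.0 was an alternative, with others on strand, normalization, filter, replicate number, neighbours, threshold and samples left out. All pairs of samples differed by more than sampling noise.

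The 9 genes and the lists were chosen with earlier results of these data known. All 9 genes are named. From the lists, called genes changed by 2-fold or more are named, plus the 3 of smallest adjusted p in each list where fewer pass. Other names were chosen after their values were seen. Promoters are from RefSeq, aligned with Biopython 1.88. Some genes of this pathway and of the marker lists are not reported here.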

Additional observations from a re-analysis of the deposited data

How the results depend on the processing

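HLA-E, HLA-F and TAP1 were called higher, and B2M, TAPBP and NLRC5 were not called, under every alternative tried. The order of the mean levels was the same in unstranded TPM, in FPKM and with each sample left out. HLA-B and HLA-C, not called in the main edgeR fit, were called under 3 alternatives. These were DESeq2 (log2 fold changes 0.37 and 0.45), edgeR with no filter on low counts (0.37 and 0.45, adjusted p = 2.52e-05 and 1.74e-07) and edgeR with the replicate number as a block (0.38 and 0.46, adjusted p = 0.00468 and 0.000541). The class I genes called were 4 in the main edgeR fit and 6 under these 3 alternatives, 3 at an adjusted p under 0.01 and 3 to 5 with each sample left out. With no filter, the adjusted p of TAP1 in edgeR's quasi-likelihood test also fell, from 0.00762 to 1.81e-23, at log2 fold changes of 0.90 and 0.89. The cause of that fall was not tested. Over all genes, 7099 were called in the main edgeR fit, 6884 with DESeq2, 8223 with no filter and 5285 to 7050 with each sample left out. The number of genes tested differed with the filter and the samples. With each sample left out, the log2 fold change was 0.24 to 0.47 for HLA-B, 0.31 to 0.64 for HLA-C and -0.38 to -0.24 for TAP2. Without both samples numbered 5, HLA-C had 0.49 and was called and TAP2 had -0.28 and was not. The class I genes with no overlap between genotypes were 5 in CPM, 3 in TPM (48.8% of all genes tested) and 8 in CPM without both samples numbered 5 (69.8% of all genes tested). At an adjusted p under 0.01, 4414 genes were called in all. The 18 genes called in the 8 lists became 33 with no filter and 30 with the block, which called 6 genes of peptide supply (4 higher and 2 lower), 5 transcription factors (1 higher and 4 lower) and 6 interferon-stimulated genes (4 higher and 2 lower). The cause of these shifts was not tested. Whether a replicate number marks a shared culture or day is not given in the sources used here. Over all genes tested, deviations of same-numbered samples correlated at -0.18, 0.27 and 0.18 for numbers 3, 4 and 5, and not every sample correlated best with its own number, so the numbers were not taken as pairs, although the class I genes were highest in sample 5 of both genotypes. In all, the block called 7477 genes against 7099. The lowest count of a class I gene was 431 per sample, and which source of error limits the precision was not tested.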

Other observations

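Other genes with class I-like folds, chosen after their values were seen, moved in both directions. MICA, a stress-induced ligand of the NKG2D receptor, had 53.5, 56.9 and 62.3 CPM in WT and 98.9, 98.7 and 112 CPM in ARID1A-KO samples, and rose by 0.84 on the log2 scale (SE 0.08, adjusted p = 5.64e-05, edgeR's quasi-likelihood test). PROCR, the endothelial protein C receptor, rose by 0.60 (adjusted p = 0.000712). MR1, which presents vitamin metabolites to mucosal T cells, fell from 7.60, 8.33 and 10.9 CPM in WT to 4.44, 4.51 and 5.25 CPM in ARID1A-KO samples, a log2 fold change of -0.91 (adjusted p = 0.00149). ULBP2, another NKG2D ligand, fell by a log2 fold change of -0.51 (adjusted p = 0.0043). All 4 had groups that did not overlap, as was true of 49.5% of all genes tested, both directions together.

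PSMB9, which encodes an inducible proteasome subunit and starts 488 bases from TAP1 on the other strand, was also chosen after its values were seen. It had 1.74, 2.34 and 4.57 CPM in WT and 3.51, 3.64 and 10.03 CPM in ARID1A-KO samples. Sample 5 was highest in both genotypes, WT sample 5 was above ARID1A-KO samples 3 and 4, and the difference of 1.0 on the log2 scale (SE 0.46) did not pass the test (adjusted p = 0.114).

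Of 7 mesenchymal and osteoblast lineage markers tested, 1 was called higher and 3 lower, beside 36.2% of all genes called, and FN1, COL1A2 and RUNX2 did not pass the test. VIM, the gene of the intermediate filament protein vimentin, rose by 0.84 (adjusted p = 0.000171), and COL1A1, SPARC and ALPL fell. ALPL, the alkaline phosphatase of osteoblasts, went from 5.74, 11.5 and 11.8 CPM in WT to 1.54, 1.69 and 2.06 CPM in ARID1A-KO samples, a log2 fold change of -2.45 (adjusted p = 0.000148).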
